A study of Mus musculus with 246 samples.

Results

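The 9 genes described here are Ifi27l2a, Ifi27, Isg15, Irf7, Irf9, Stat2, Bst2, Usp18 and Oasl2, a group of interferon-stimulated genes picked by name from a table of 56691 genes. All 9 were in the table. The rule names the genes and sets no threshold on a measured value, though earlier results of these data were known when they were chosen. They were followed over 6 brain regions, 3 conditions and 2 sets of mice, by RNA-seq of bulk tissue punches from 41 adult male CD1 mice, an outbred stock, with 1 library per region and mouse.

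The study asked how early life adversity (ELA) and an inhibitor of the stress-linked co-chaperone FKBP51 change gene expression in the adult brain. In ELA, dams and litters were kept with limited bedding and nesting material for a stretch of the early postnatal period. SAFit2, a selective FKBP51 inhibitor, was injected once into the dam in a slow-release phospholipid gel, so the pups could receive it only through her. Tissue of the adult sons was taken after behavioural testing from the ventral hippocampus (vHipp), the dorsomedial thalamus (DMT), the basolateral amygdala (BLA), the shell of the nucleus accumbens (Nacc), the medial prefrontal cortex (mPFC) and its neighbour, the anterior cingulate (ACC). The groups were Ctrl_Veh (standard rearing, dams given the gel without SAFit2), ELA_Veh (ELA, the same gel without SAFit2) and ELA_SAFit2 (ELA, gel with SAFit2). In the set NoInteraction, 7 mice per condition were taken without a social encounter. In the set SocialInteraction, 6 Ctrl_Veh, 7 ELA_Veh and 7 ELA_SAFit2 mice had met an unfamiliar mouse for 10 minutes beforehand. A group of standard rearing with SAFit2 was not analysed here, and the labels used here do not say which mice were littermates, so litter and treatment of the dam cannot be told apart.

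Type I interferons act through a cell surface receptor, its JAK kinases and the factor ISGF3, which holds STAT2 and IRF9 and binds interferon-stimulated response elements in front of its target genes. Stat2 and Irf9 thus encode parts of the signalling chain itself, and Irf7 encodes a transcription factor that raises further interferon production. Isg15 encodes a ubiquitin-like protein that is attached to other proteins, and Usp18 the protease that takes it off again and restrains the interferon receptor. Oasl2 belongs to the oligoadenylate synthetase family of antiviral proteins. Bst2 (tetherin) holds budding enveloped viruses at the cell surface, and Ifi27 and Ifi27l2a encode small membrane proteins that are strongly induced by interferon in many cell types. In the brain, microglia, border macrophages and vessel cells are well known responders.

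Promoter windows from 250 bases before to 50 bases after the start of transcription were available for 6 of the 9 genes, from RefSeq on GRCm38.p6, the C57BL/6J reference genome and not that of CD1 mice. The core of the response element, GAAA followed by GAAA again after 2 bases of any kind, was searched on both strands. It was present in 1131 of all 32851 windows (3.44%). It occurred 3 times in an overlapping row in Isg15, between 78 and 57 bases before the start, and 2 times with overlap in Bst2, between 130 and 115 bases before it. Stat2 had 1 match, on the reverse strand, between 222 and 213 bases before the start. No match lay in the windows of Irf7, Irf9 and Oasl2. The core of the gamma-activated site, TTCNNNGAA, occurred in Bst2 from 136 to 128 bases before the start, where its last bases overlap the first response element match, and in 2726 windows overall (8.3%). The windows shown are those of Isg15, Bst2 and Stat2, which carry the matches, and of Irf7, which has none but followed Isg15 across regions. Bst2 behaved unlike Isg15 in the BLA, where its level moved with markers of another tissue, as described further on. Whether the matches bear on these patterns was not tested. Capitals mark the response element matches. The windows are Isg15 at chr4:156200769-156201068, Bst2 at chr8:71537423-71537722 and Irf7 at chr7:141266375-141266674, all on the minus strand, and Stat2 at chr10:128270248-128270547 on the plus strand.
Isg15: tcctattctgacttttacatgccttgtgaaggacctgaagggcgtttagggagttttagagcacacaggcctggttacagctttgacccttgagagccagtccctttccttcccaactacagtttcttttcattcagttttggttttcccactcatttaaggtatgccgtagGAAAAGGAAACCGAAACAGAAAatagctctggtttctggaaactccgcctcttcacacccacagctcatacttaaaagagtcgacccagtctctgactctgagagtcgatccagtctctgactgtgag
Bst2: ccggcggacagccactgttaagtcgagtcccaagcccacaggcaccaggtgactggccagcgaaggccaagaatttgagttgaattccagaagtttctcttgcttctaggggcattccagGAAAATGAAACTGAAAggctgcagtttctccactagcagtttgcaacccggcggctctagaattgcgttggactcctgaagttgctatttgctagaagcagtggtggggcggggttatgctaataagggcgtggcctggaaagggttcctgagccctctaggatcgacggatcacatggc
Stat2: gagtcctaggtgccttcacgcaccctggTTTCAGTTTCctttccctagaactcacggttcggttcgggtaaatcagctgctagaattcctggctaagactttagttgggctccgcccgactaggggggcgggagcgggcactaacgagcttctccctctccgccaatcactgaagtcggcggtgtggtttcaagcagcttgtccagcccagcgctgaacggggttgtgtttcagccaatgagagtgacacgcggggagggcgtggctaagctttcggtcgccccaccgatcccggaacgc
Irf7: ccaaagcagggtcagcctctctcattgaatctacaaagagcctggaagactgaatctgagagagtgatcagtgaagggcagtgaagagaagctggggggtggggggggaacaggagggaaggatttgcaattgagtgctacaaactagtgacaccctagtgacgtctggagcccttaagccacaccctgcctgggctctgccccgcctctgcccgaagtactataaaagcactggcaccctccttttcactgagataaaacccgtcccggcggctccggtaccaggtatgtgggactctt

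Libraries held between 20804219 and 43351397 counts, with a median of 28844763. Markers of the labelled tissue were in place for the DMT and Nacc and mixed elsewhere. The 3 thalamic markers Slc17a6, Tcf7l2 and Prkcd peaked in the DMT, and the 4 striatal markers Drd1, Drd2, Adora2a and Ppp1r1b in the Nacc. The BLA punches held Cyp26b1 at a median of 166 CPM (counts scaled to library size), but also Adora2a at 136 CPM, a striatal marker, and Rspo2 was higher in the ACC (42.3 CPM) than in the BLA (18.9 CPM). Of the hippocampal markers, Zbtb20 peaked in the vHipp (median 548 CPM). Prox1 had medians of 247 CPM there and 221 in the DMT. Wfs1 was lower in the vHipp (70.7 CPM) than in the Nacc (537 CPM) or BLA (454 CPM). Slc17a7, a marker of excitatory neurons, ran from 20.2 to 1106 CPM over the Nacc libraries. In the Nacc, 12 libraries, 6 of them NoInteraction, carried individual-specific expression of another mouse than their label gives, and 0 did so in the other regions. Fold changes between conditions within the Nacc are therefore given with and without them, and sums over regions also without the Nacc. CPM ranges and medians of groups in the Nacc include all libraries. The test of the difference between sets was run with all libraries only.

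The 9 genes spanned a wide range of levels. Corrected for length, Ifi27 was the most abundant with a median of 8.42 CPM per kb of exon, above 69.6% of the 17356 genes so ranked, followed by Stat2 at 5.02 and Irf9 at 1.75 CPM per kb. The median gene stood at 3.61 CPM per kb. The other 6 were low: Bst2 reached 0.842, Isg15 0.639, Oasl2 0.294, Ifi27l2a 0.284, Irf7 0.237 and Usp18 0.118 CPM per kb. Ifi27 and the genes of the signalling chain were thus the most abundant of the 9. Of the chain, Stat2 lay above 57.2% of all genes, but Irf9 only above 37.8%, below the median gene. The 6 low genes lay above only 16.2% to 30.3% of all genes. In reads, the median library held 823.5 of Stat2, 338 of Ifi27, 263 of Irf9, 51 of Oasl2, 25 of Irf7, 21 of Bst2, 13 of Isg15, 9 of Usp18 and 4 of Ifi27l2a. Ifi27l2a had 0 reads in 31 libraries and Usp18 in 1. Ifi27l2a passed the filter on low counts in 4 of the 6 regions and not in the DMT or vHipp, and the other 8 passed in all 6, so 52 member tests were possible per comparison. At such counts the counting error of a library is large for Ifi27l2a, Usp18 and Isg15.

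The regions were compared first, each with the mean of the other 5 over all 41 mice (edgeR quasi-likelihood test, Benjamini-Hochberg adjustment over 17381 genes). The BLA was set apart by Ifi27l2a and Bst2 and the DMT by the response genes Irf7, Isg15 and Usp18, which were highest there. Of the 54 member tests, 38 were called. The background was high, because most genes differ between brain regions: the percentage of all genes called was 85.5% for the DMT, 78% for the vHipp, 76.8% for the Nacc, 74.4% for the ACC and 73.4% for the BLA as for the mPFC. In the DMT 6 members were called higher and 3 lower, where 42.2% of all genes were higher and 43.3% lower. In the BLA 3 were higher and 5 lower, beside 38.5% and 34.9% of all genes. The vHipp had 4 higher and 2 lower, beside 37.6% and 40.4%, and the mPFC had 2 and 3, beside 36.4% and 37%. The Nacc and the ACC each had 1 higher and 4 lower, beside 38.7% and 38.1% of all genes for the Nacc and 34.8% and 39.6% for the ACC. The median log2 difference of the 9 genes ran from -0.13 in the ACC to 0.18 in the DMT, beside medians of all genes of -0.02 and -0.01. The counts were therefore near the background, and what separates the members is the direction and size of each difference.

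**Figure D1:**
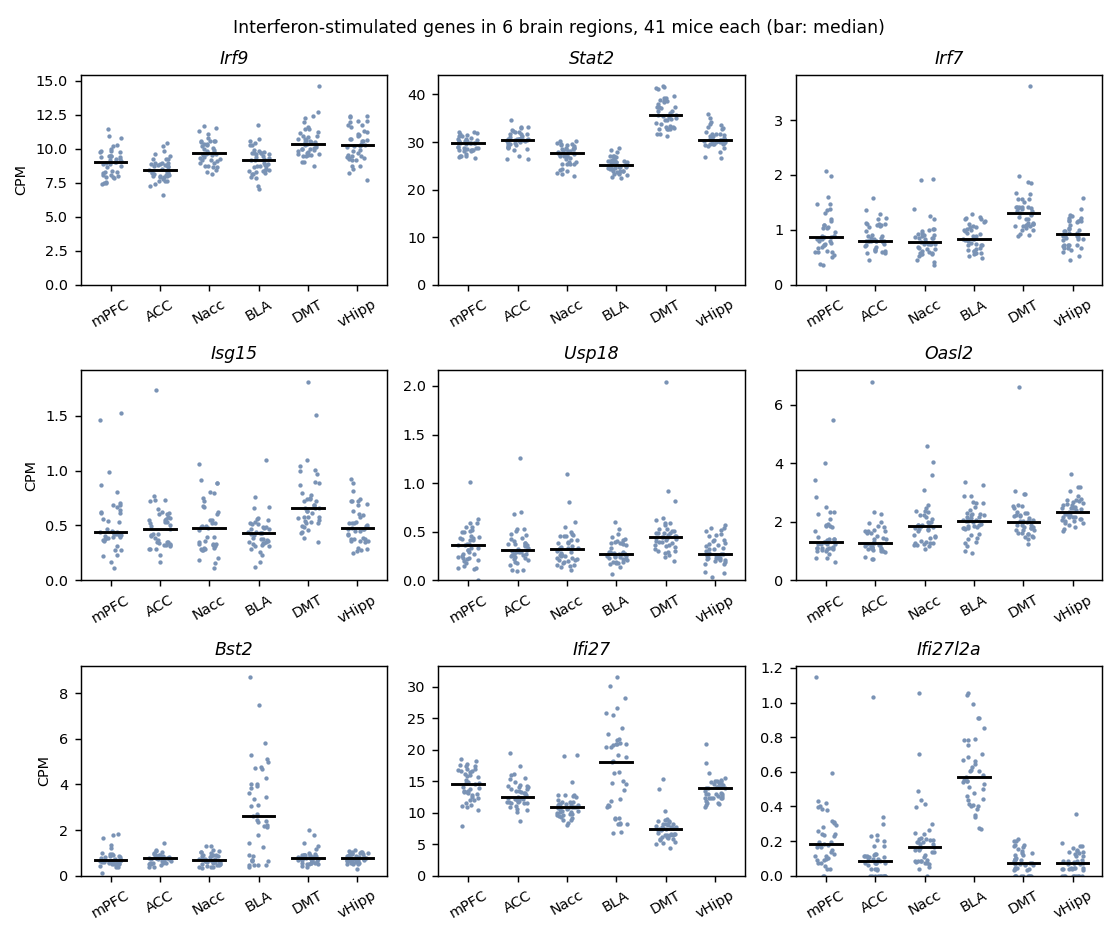
CPM of the 9 genes (y axis, linear, one panel per gene) in the 6 regions (x axis). Each point is 1 of 41 mice and the black bar is the median; Bst2 and Ifi27l2a stand highest in the BLA, with medians of 2.63 and 0.569 CPM, while Irf7, Isg15 and Usp18 stand highest in the DMT, with overlapping ranges.

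Within the signalling chain, Stat2 varied least between mice. It lay between 31.3 and 41.7 CPM in the DMT (median 35.7), between 26.7 and 35.9 in the vHipp (30.5), between 26.4 and 34.6 in the ACC (30.5), between 26.5 and 32.1 in the mPFC (29.7), between 22.8 and 30.2 in the Nacc (27.6) and between 22.5 and 28.8 in the BLA (25.1). The DMT range lay above those of the BLA and Nacc without overlap. Stat2 was 0.34 (SE 0.02, adjusted p = 4.64e-57) higher on the log2 scale in the DMT and fell by 0.28 (SE 0.02, adjusted p = 6.71e-42) in the BLA, and of the neighbours in this order only the vHipp and ACC did not differ beyond their spread. Irf9 had medians of 10.4 CPM in the DMT, 10.3 in the vHipp, 9.68 in the Nacc, 9.15 for the BLA, 9.03 in the mPFC and 8.43 in the ACC, within 6.57 to 14.6 CPM over all libraries. Its ranges overlapped in every pair of regions. It was higher by 0.18 (SE 0.03) in the DMT and lower in the ACC (log2 difference -0.19), and the steps from vHipp to Nacc, Nacc to BLA and mPFC to ACC passed the test.

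Irf7, which encodes the interferon-amplifying factor, ran from 0.885 to 3.62 CPM in the DMT, with a median of 1.30. Its medians elsewhere were 0.919 CPM in the vHipp, 0.862 in the mPFC, 0.834 in the BLA, 0.802 in the ACC and 0.776 in the Nacc. The ranges overlapped, yet the DMT was 0.61 higher on the log2 scale (SE 0.07, adjusted p = 5.60e-15). Isg15 showed the same order at the top, with 0.350 to 1.81 CPM in the DMT (median 0.657) and medians of 0.475 in the vHipp, 0.471 in the Nacc, 0.464 in the ACC, 0.437 in the mPFC and 0.427 in the BLA. The DMT was 0.56 higher (SE 0.10, adjusted p = 2.78e-08). Usp18, whose product removes ISG15, ran from 0.201 to 2.04 CPM in the DMT (median 0.439) and had medians between 0.268 CPM in the vHipp and 0.361 in the mPFC elsewhere, and was 0.56 higher in the DMT (SE 0.11, adjusted p = 9.57e-07). For these 3 genes the step from the DMT to the next region was the only one between neighbours that passed the test. All 3 were below the mean of the other regions in the BLA, by log2 differences of -0.18 for Irf7, -0.30 for Isg15 and -0.31 for Usp18.

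Oasl2 was highest in the vHipp, at 1.70 to 3.64 CPM (median 2.32), and lowest in the ACC, at 0.724 to 6.79 CPM (median 1.26). Medians between these were 2.02 CPM in the BLA, 1.85 in the Nacc and 1.31 in the mPFC, with the DMT just under the BLA. The vHipp was 0.39 higher on the log2 scale (SE 0.08, adjusted p = 8.28e-06) and the ACC lower, with a log2 difference of -0.43 (adjusted p = 4.97e-06), although the highest library of all was an ACC library. The steps from vHipp to BLA and from Nacc to mPFC passed the test.

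The antiviral membrane gene Bst2 had a median of 2.63 CPM in the BLA, with libraries from 0.396 to 8.69, and medians of 0.790 in the DMT, 0.764 in the ACC, 0.757 in the vHipp, 0.676 in the mPFC and 0.667 in the Nacc. The BLA was 1.92 higher on the log2 scale (SE 0.10, adjusted p = 5.21e-51), the other 5 regions did not differ between neighbours, and the BLA libraries reached down into the range of the rest. Ifi27 stood at 18.1 CPM in the BLA (6.81 to 31.4), 14.5 in the mPFC, 13.8 in the vHipp, 12.4 in the ACC, 10.8 in the Nacc and 7.37 in the DMT (4.44 to 15.4). It was 0.54 higher in the BLA (SE 0.06, adjusted p = 5.13e-18) and lower in the DMT (log2 difference -0.87, SE 0.06, adjusted p = 3.08e-31), so that the DMT was the high region for Irf7, Isg15 and Usp18 and the low region for Ifi27. Ifi27l2a had a median of 0.569 CPM in the BLA (0.267 to 1.05) against 0.183 in the mPFC, 0.166 in the Nacc, 0.0844 in the ACC, 0.0728 in the DMT and 0.0702 in the vHipp, and these 5 regions each held libraries with 0 reads. The BLA was 2.17 higher (SE 0.15, adjusted p = 2.44e-33), with single libraries of the mPFC and Nacc as high as the top of the BLA.

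The BLA differences of Bst2 and Ifi27 moved with markers of the choroid plexus, a tissue within the ventricles. All 4 listed markers (Ttr, Kl, Folr1 and Clic6) passed the filter, and their sum reached 5665 CPM over the BLA libraries with a median of 2634, beside medians of 32.4 in the Nacc, 31.8 in the DMT, 21.9 in the vHipp, 3.80 in the mPFC and 3.29 in the ACC. The DMT reached 1383 CPM in its highest library. Ttr, the defining marker, was at 0 in at least 1 library of every region. Its median was 2354 CPM in the BLA and 19.8 in the DMT, but 0.415 in the vHipp and 0.0719 in the Nacc. The sum came mostly from Kl in the vHipp (median 20.3 CPM) and from Clic6 in the Nacc (26.4 CPM). Over the 41 BLA libraries the sum correlated with Bst2 at r = 0.92 (rho = 0.94, 0.91 without the 2 farthest libraries) and with Ifi27 at r = 0.89 (rho = 0.94, 0.88 without them), both at a permutation p of 1e-05, the smallest that 100000 permutations can give. Among the 35 libraries with 100 CPM or more, r was 0.93 for Bst2 and 0.89 for Ifi27 (permutation p = 1e-05 each). For Ifi27l2a r was 0.03 over all 41 (permutation p = 0.833). A list of meningeal fibroblast markers (Dcn, Col1a1, Lum and Igf2, of which Igf2 is also high in choroid plexus) gave r = 0.97 for Bst2, 0.95 for Ifi27 and -0.01 for Ifi27l2a. In all, 810 such relations between members, lists and regions were computed.

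**Figure D2:**
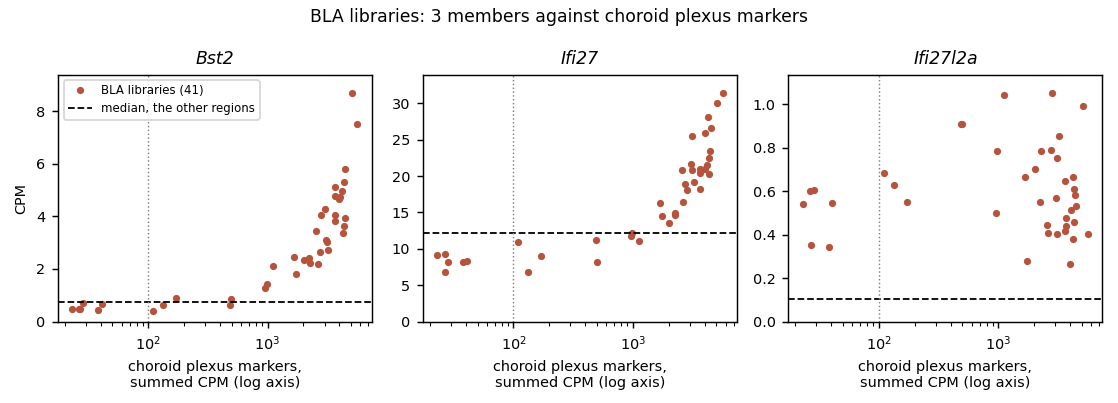
CPM of Bst2, Ifi27 and Ifi27l2a (y axes, linear) against the summed CPM of 4 choroid plexus markers (x axis, log scale) in the 41 BLA libraries. The dashed line is the median of the 205 libraries of the other regions and the dotted line marks 100 CPM; Bst2 and Ifi27 fall below the dashed line at the left and rise to the right, while Ifi27l2a stays above it throughout.

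In the 6 BLA libraries with under 100 CPM of these markers, Bst2 lay between 0.455 and 0.691 CPM (median 0.476), below the median of 0.737 of the 205 libraries of other regions. In the other 35 it ran from 0.396 to 8.69 CPM with a median of 3.11. Ifi27 lay between 6.81 and 9.22 CPM in the 6 (median 8.29) and between 6.87 and 31.4 in the 35 (median 19.1), with 12.2 as the median of other regions. Ifi27l2a did not split in this way, at 0.342 to 0.605 CPM in the 6 (median 0.543), 0.267 to 1.05 in the 35 (median 0.582) and a median of 0.104 CPM elsewhere. With only these 6 libraries standing for the BLA, a choice made after the values were seen, 43.6% of all genes were called. The log2 difference of Bst2 turned to -0.48 (SE 0.21, adjusted p = 0.0592) and that of Ifi27 to -0.49 (SE 0.12, adjusted p = 0.00016). That of Ifi27l2a was 1.96 (SE 0.38, adjusted p = 3.69e-06) and that of Stat2 -0.24 (adjusted p = 2.53e-07), both called as before, and Irf7, Irf9, Isg15 and Usp18 no longer passed in the BLA. In bulk tissue, more cells of a type and more RNA per cell cannot be told apart.

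The choroid plexus sum also varied within and between the groups of mice. Its BLA medians were 2819 CPM in Ctrl_Veh, 984 in ELA_Veh and 2269 in ELA_SAFit2 of the NoInteraction set, and 3518, 3645 and 498 in the same order in the SocialInteraction set, with every group spanning from 110 CPM or less to 4263 CPM or more. Bst2 and Ifi27 in the BLA, and any sum over regions that includes the BLA, are to be read beside these values. The part of the choroid plexus in group differences of these genes was not tested beyond leaving the BLA out.

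ELA and SAFit2 were then compared within each region and set, with 3 comparisons of conditions in 6 regions and 2 sets. No member was called in any of the 36 comparisons, 0 of 312 tests by edgeR, where 1 of 569856 tests over all genes was called (0.000175%). At an unadjusted p under 0.05 stood 23 of the 312 member tests (7.37%) and 4.14% of all tests, and the lowest adjusted p of a member was 0.591. The share was highest for ELA_Veh against Ctrl_Veh and ELA_SAFit2 against ELA_Veh in the NoInteraction set, with 6 of 52 each (11.5%) beside 4.7% and 5.07% of all genes. These comparisons share the ELA_Veh libraries. ELA_SAFit2 against Ctrl_Veh had 1 of 52 in that set, beside 3.32%. In the SocialInteraction set ELA_Veh against Ctrl_Veh had 3 of 52, beside 4% of all genes, and ELA_SAFit2 against Ctrl_Veh had 4 of 52, also beside 4%. ELA_SAFit2 against ELA_Veh had 3 of 52 there, beside 3.73%, and it is the comparison that holds the 1 call over all genes (0.00105% of its 94976 tests). Log2 fold changes over all 312 tests ran from -1.30 to 1.37.

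Of these 12 tests in the NoInteraction set, 11 came from the Nacc. There, Usp18 lay between 0.154 and 0.597 CPM in Ctrl_Veh (median 0.293), between 0.209 and 1.09 in ELA_Veh (0.457) and between 0.140 and 0.305 in ELA_SAFit2 (0.203). These ranges and medians, and those that follow, include the mismatched libraries. The ELA_Veh library with 1.09 CPM carries the label of mouse 37. By individual-specific genes it matched mouse 59 of the SocialInteraction set (r = 0.961) and not mouse 37 (r = -0.0012). Bst2 lay between 0.424 and 1.03 CPM in Ctrl_Veh (0.710), between 0.627 and 1.32 in ELA_Veh (1.05) and between 0.349 and 0.715 in ELA_SAFit2 (0.609). ELA_Veh had the highest median for both genes, and its libraries overlapped those of either other group. Oasl2 showed medians of 1.77, 2.22 and 1.48 CPM in Ctrl_Veh, ELA_Veh and ELA_SAFit2, with the widest spread in ELA_Veh (1.25 to 4.59). Isg15 showed medians of 0.498, 0.674 and 0.320 CPM and Irf7 medians of 0.854, 1.26 and 0.610 CPM in the same order, again with overlapping groups. The library of mouse 43, an ELA_Veh mouse, was the highest of all 41 Nacc libraries for Ifi27l2a, Isg15, Irf7 and Oasl2.

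For ELA_SAFit2 against ELA_Veh in these Nacc libraries, the log2 fold change was -1.30 for Usp18 (SE 0.34), -0.78 for Bst2 (SE 0.22), -0.72 for Oasl2, -0.83 for Isg15, -0.74 for Irf7 and -0.27 for Ifi27. Only before adjustment did these 6 pass 0.05, and their adjusted p-values by edgeR lay between 0.591 and 0.635, and 0% of the 15881 genes tested were called. Unadjusted, 7.81% of all genes passed. Ifi27l2a had -0.90, Irf9 -0.10 and Stat2 0.01, so the signalling chain genes stood near 0 while the inducible genes were lower, with a median of -0.74 over the 9 and -0.01 over all genes. For ELA_Veh against Ctrl_Veh, which shares the ELA_Veh libraries, the values were 1.31 for Ifi27l2a, 0.73 for Usp18, 0.57 for Oasl2, 0.48 for Bst2 and 0.28 for Ifi27, each with an adjusted p of 0.841 by edgeR, and 5.04% of all genes had an unadjusted p under 0.05. Without the mismatched libraries Usp18 had 0.40 in that comparison, Oasl2 had 0.44, Bst2 0.40, Ifi27 0.33 and Ifi27l2a 1.31. Of these 5, Ifi27 and Ifi27l2a then passed 0.05 before adjustment, and none passed after it. For ELA_SAFit2 against ELA_Veh the 5 libraries left per condition gave -1.29 for Ifi27l2a, -1.18 for Usp18, -0.98 for Isg15, -0.89 for Irf7, -0.77 for Bst2, -0.66 for Oasl2 and -0.37 for Ifi27, with adjusted p-values of 0.996 by edgeR.

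Summed markers of perivascular macrophages (Mrc1, Cd163, Lyve1 and F13a1, all 4 measured) lay between 4.20 and 10.8 CPM in the Ctrl_Veh, 5.19 and 15.8 in the ELA_Veh and 4.40 and 7.44 in the ELA_SAFit2 libraries of this set in the Nacc, with medians of 6.47, 6.36 and 5.20. Over the 41 Nacc libraries this sum correlated with Oasl2 at r = 0.64 (rho = 0.61, permutation p = 3e-05) and with Bst2 at r = 0.53 (rho = 0.54, permutation p = 0.00055). The 6 microglial markers had medians of 266, 272 and 294 CPM in the same order, so the microglial sum was highest in ELA_SAFit2. The part of either cell type in the Nacc values was not tested. In the SocialInteraction set the Nacc values of ELA_SAFit2 against ELA_Veh ran from -0.68 to 0.55, the latter for Bst2 (adjusted p = 0.997 by edgeR), and from -0.51 to 0.50 without the mismatched libraries, the latter again for Bst2. Tested directly, the difference between the sets had an unadjusted p under 0.05 for 5 of the 9 genes, where 9.48% of all genes had one. The lowest adjusted p of a member was 0.224, for Bst2, and over all genes 5 of 15881 were called (0.0315%).

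Elsewhere the values were scattered. In the DMT of the SocialInteraction set, ELA_SAFit2 exceeded Ctrl_Veh by log2 values of 0.93 for Usp18, 0.69 for Oasl2 and 0.56 for Irf7 (adjusted p = 0.983 each), and the ELA_SAFit2 group there holds a library in which many members were high, described further on. In the vHipp of the same set, ELA_Veh against Ctrl_Veh gave 0.65 for Usp18, 0.37 for Oasl2 and 0.25 for Ifi27 (adjusted p = 0.932). In the mPFC without interaction, the median of the 9 genes for ELA_Veh against Ctrl_Veh was -0.50, with 3 of the 9 above 0. The median of all genes was -0.005 there. In the Nacc of the same set, with all libraries, the median of the 9 was 0.48, on the other side of 0. Isg15 had -1.01 in that mPFC comparison (adjusted p = 0.947). No member passed the edgeR test after adjustment in any of these.

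Adding up the 6 libraries of a mouse gave each low gene more reads. No member was called in the 3 comparisons of conditions over both sets, where 0, 0 and 1 of 17381 genes were called (0%, 0% and 0.00575%). For ELA_Veh against Ctrl_Veh the log2 fold change was 0.24 for Usp18 (SE 0.13, 95% interval -0.02 to 0.51, adjusted p = 0.796), 0.13 for Oasl2 (-0.07 to 0.34), 0.13 for Ifi27l2a (-0.25 to 0.52), -0.21 for Bst2 (-0.58 to 0.15) and 0.01 for Stat2 (-0.03 to 0.06). The intervals were thus narrow for Stat2 and wide for Ifi27l2a and Bst2. For ELA_SAFit2 against ELA_Veh the 9 values ran from -0.12 for Usp18 (-0.38 to 0.13) to 0.05 for Isg15 (-0.15 to 0.25). Against Ctrl_Veh, ELA_SAFit2 gave 0.15 for Ifi27l2a, 0.12 for Usp18, 0.11 for Oasl2 and -0.21 for Bst2. Single mice weighed on these values. Without the ELA_SAFit2 mouse of the SocialInteraction set that is highest for Usp18, the value of Usp18 was 0.023, and without mouse 15 that of Oasl2 was 0.048. Without mouse 81 that of Ifi27l2a was 0.31, and without mouse 49 that of Bst2 was -0.11. Leaving out the Nacc gave 0.25 for Ifi27l2a, 0.18 for Usp18, 0.13 for Oasl2 and -0.23 for Bst2. Without the BLA the value of Bst2 for ELA_Veh against Ctrl_Veh was 0.05, on the other side of 0. The medians over the 9 genes were 0.03, -0.003 and 0.03 for the 3 comparisons, and the medians of all genes were 0.0001, -0.001 and -0.0007.

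**Figure D3:**
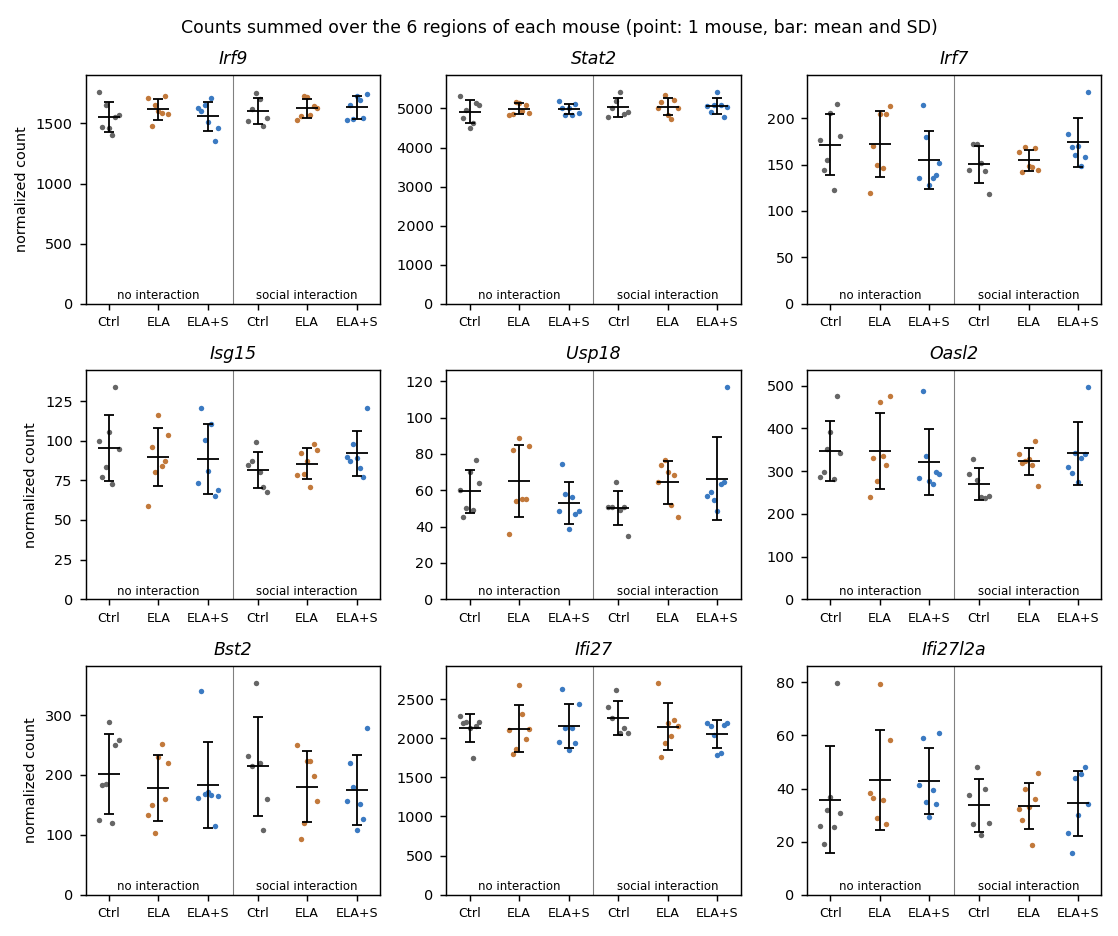
Normalized counts summed over the 6 regions (y axis, linear from 0) by condition and set (x axis) for the 9 genes. Ctrl, ELA and ELA+S stand for Ctrl_Veh, ELA_Veh and ELA_SAFit2, each point is 1 mouse and the bars give the mean and SD (n = 6 or 7). The groups overlap for every gene, and single ELA_SAFit2 mice stand above the rest of their own group for Bst2, Usp18 and Oasl2. The highest Bst2 value of all, 354, belongs to a Ctrl_Veh mouse of the SocialInteraction set.

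Group by group, the Usp18 sum lay between 45.2 and 76.9 normalized counts in Ctrl_Veh (median 60.3), between 36.1 and 88.6 in ELA_Veh (55.5) and between 38.5 and 74.3 in ELA_SAFit2 (48.7) of the NoInteraction set. In the SocialInteraction set it lay between 34.9 and 64.5 (50.9), 45.1 and 76.8 (68.3) and 48.8 and 117 in the same order. All of these ranges overlap. Oasl2 lay between 238 and 329 in Ctrl_Veh (median 260), between 266 and 371 in ELA_Veh (323) and between 275 and 497 in ELA_SAFit2 (330) of the SocialInteraction set. These gave the only unadjusted values under 0.05 among 54 exact two-sided permutation tests of the 9 genes, at p = 0.021 for ELA_Veh against Ctrl_Veh and p = 0.0221 for ELA_SAFit2 against Ctrl_Veh, which share the Ctrl_Veh mice. The smallest p these exact tests allow is 0.000583.

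Social interaction was compared with none over all conditions in each region, and moved none of the 9 genes past the threshold, 0 of 52 tests by edgeR beside 2.64% of all 94976 tests. The share of all genes called was 7.4% for the mPFC, 4.15% for the ACC, 1.6% for the DMT, 1.49% for the BLA, 1.21% for the vHipp and 0% for the Nacc. At an unadjusted p under 0.05 stood 4 of the 52, 1 of them higher, and 13.2% of all tests. They were Stat2 in the BLA (log2 fold change 0.07, adjusted p = 0.125), Oasl2 in the BLA (-0.31, adjusted p = 0.192) and mPFC (-0.42, adjusted p = 0.239), and Ifi27l2a in the mPFC (-0.70, adjusted p = 0.253). All values lay between -0.74 and 0.29. In the Nacc without its mismatched libraries they ran from -0.57 to 0.07, with a lowest adjusted p of 0.668. On summed counts, where 8.56% of 17381 genes were called, the lowest adjusted p of a member was 0.366, for Ifi27l2a at -0.26 (95% interval -0.57 to 0.06).

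The rest of the interferon pathway was given by 85 further entries in 7 lists by role. Ifih1 stands both among the sensors and adaptors and among the further interferon-induced genes. Detected in the summed counts were 0 of 8 ligands, 8 of 8 receptors and kinases, 6 of 6 transcription factors, 10 of 13 sensors and adaptors, 4 of 4 genes of ISG15 conjugation, 5 of 5 negative regulators and 38 of 41 further interferon-induced genes, where Rigi, Tmem173 and Mb21d1 among the sensors are other names of genes already listed. In the 36 comparisons of conditions, 0 of 2484 tests of these entries were called by edgeR. Social interaction was followed by a few small calls. Of 70 entries tested with mPFC libraries, 1 was called higher and 3 lower, where 7.4% of all genes were called. ACC libraries gave 0 higher and 3 lower of 68, beside 4.15%, and DMT libraries 1 and 1 of 70, beside 1.6%. Summed counts gave 0 higher and 4 lower of 71, beside 8.56%. Whether these shares differ from the background was not tested. For the mPFC, Jak2, a receptor kinase, rose by 0.17 on the log2 scale. Tyk2 fell by 0.10 there, the DNA sensor Cgas by 0.32 and the peptide transporter Tap1 by 0.29. In the ACC the RNA-activated kinase gene Eif2ak2 fell by 0.24, the RNA sensor gene Tlr3 by 0.23 and Ifit1 by 0.65 (adjusted p = 0.0490 by edgeR). In the DMT Eif2ak2 fell by 0.22 and Ifngr2 rose by 0.13. On summed counts Eif2ak2 fell by 0.14, Tlr3 by 0.14, Gbp3 by 0.20 and Samhd1 by 0.05 (adjusted p = 0.0428 by edgeR). The 38 further induced genes had a median log2 change of -0.05 there, beside -0.0009 over all genes.

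Between mice, 4 of the inducible genes moved together. With the means of the 6 groups removed, summed counts of Isg15, Irf7, Usp18 and Oasl2 gave r between 0.70 and 0.80 in all 6 pairs over 41 mice (rho 0.58 to 0.74, r 0.63 to 0.73 without the 2 farthest mice). The permutation p was at most 8e-05, not adjusted, among 36 pairs of members computed. Ranked among all 17380 other genes, each of the 4 had the other 3 among its 7 closest. Without the Nacc r ran from 0.65 to 0.81 and the lowest of these ranks was 10, Usp18 for Isg15. Without the BLA r ran from 0.70 to 0.82 and the lowest rank was 9, Isg15 for Oasl2. Irf9 and Stat2, partners in ISGF3, correlated with each other at r = 0.46 (rho = 0.43, permutation p = 0.00239) but with the other 7 only at -0.15 to 0.33. Ifi27l2a reached r = 0.54 with Oasl2 (rho = 0.54, permutation p = 0.00033) and 0.46 with Usp18. All points share the library depth and the tissue composition of a mouse.

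**Figure D4:**
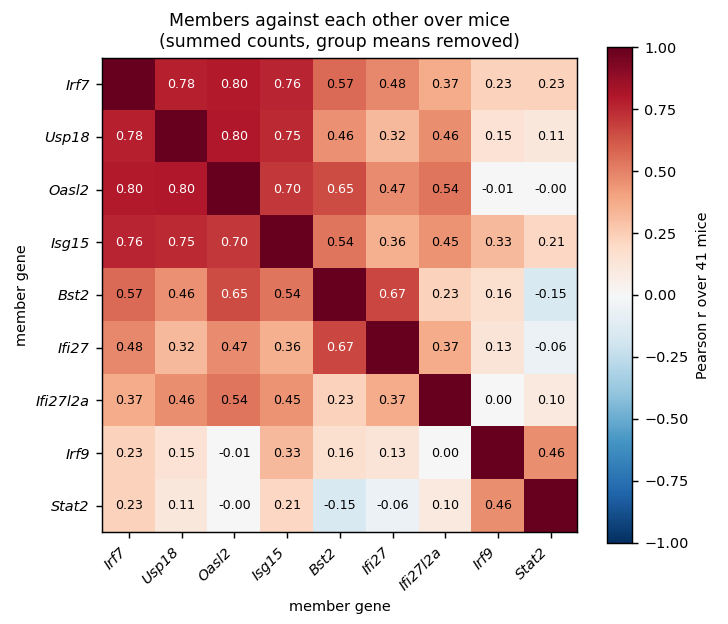
Pearson r between the 9 genes (both axes) over 41 mice, on counts summed over regions with group means removed; red is positive and blue negative. The block of Irf7, Usp18, Oasl2 and Isg15 holds values from 0.70 to 0.80, and Irf9 and Stat2 stand apart with -0.15 to 0.33 against the rest.

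The genes nearest to each of the 4 in pattern were largely other interferon-induced genes. Apart from each other, Irf7 was closest to Rtp4 (r = 0.75) and Ifit1 (0.74), Usp18 to Ifit1 (0.75) and Siglec1 (0.69), Isg15 to Igtp (0.75) and Lgals3bp (0.70), and Oasl2 to Lgals3bp (0.80), Ifit1 (0.76) and Ddx60 (0.71). Bst2 instead was closest to Igfbp2, Trpm3 and Slc2a12 (0.91 each), Igf2 (0.90) and Cgnl1 (0.90), and without the BLA its nearest genes were Oasl2 (0.74), Hacd4, Fcgrt, Arhgap45 and Fgl2. Ifi27 was closest to Acaa2 (0.83), Slc4a2, Rab11fip1, Otx2 and Sostdc1, and without the BLA to Mapk15, Tnnt3, Ctsz, Unc5cl and Antxr1. The correlation of Bst2 with Ifi27, 0.67 over summed counts, was 0.93 within the BLA and between -0.01 and 0.50 in the other regions. Irf9 was closest to Tnfrsf25 (0.75) and Stat2 to Letm2 (0.70).

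Region by region the ties between the inducible genes varied. Isg15 and Oasl2 correlated at 0.72 in the mPFC and 0.16 in the vHipp, Irf7 and Oasl2 at 0.75 in the mPFC and 0.20 in the BLA, and Bst2 and Oasl2 at 0.86 in the mPFC and -0.02 in the BLA. In the mPFC, Bst2 also correlated with the summed markers of meningeal fibroblasts (r = 0.77, rho = 0.79), perivascular macrophages (0.76, rho = 0.81), endothelium (0.73, rho = 0.70) and microglia (0.62, rho = 0.65), and Oasl2 at 0.71, 0.66, 0.63 and 0.58 with the same lists, each at a permutation p of at most 5e-05. How far such cells account for the ties was not tested.

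Between regions, the order of the mice was kept more for Stat2 and Irf9 than for the other members. The mean r of a gene with itself between regions, over the 10 pairs of regions without the Nacc, was 0.389 for Stat2 and 0.344 for Irf9, above 92.0% and 90.0% of all genes. It was 0.168 for Usp18, 0.161 for Ifi27, 0.140 for Bst2, 0.119 for Irf7, 0.113 for Oasl2, 0.0969 for Ifi27l2a and 0.0390 for Isg15, where the median gene had 0.104. Mice high for Stat2 or Irf9 in a region thus tended to be high in other regions too, and for most of the inducible genes this tie was near that of the median gene. Counting error lowers such an r, and genes of like counts were not compared. The median library held 823.5 reads of Stat2, 338 of Ifi27 and 263 of Irf9, but 13 of Isg15, 9 of Usp18 and 4 of Ifi27l2a. For genes of few reads, a low r therefore cannot show that the regions of a mouse differed. Across mice the coefficient of variation of the summed counts was 32.9% for Bst2, 32.2% for Ifi27l2a, 21.3% for Usp18, 18.5% for Oasl2, 16.4% for Isg15, 15.6% for Irf7, 11.1% for Ifi27, 6.46% for Irf9 and 4.25% for Stat2, with a median of 6.25% over all genes. Genes of few reads vary more. Taken as a ratio to the trend of the coefficient with level, Isg15 lay above 47.1% of all genes, Irf9 above 47.7%, Stat2 above 49.9% and Irf7 above 50.4%, close to the median gene. Usp18 lay above 63.1%, Oasl2 above 71.3%, Ifi27l2a above 81.5%, Ifi27 above 84.7% and Bst2 above 89.3%.

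Single libraries stood out in which several members were high at once. The ACC library of mouse 15 (ELA_SAFit2, NoInteraction) was the highest of 41 for 6 members. It held 6.79 CPM of Oasl2, where the next library had 2.32 and the median was 1.26. It held 1.73 CPM of Isg15 (next 0.764, median 0.464), 1.25 of Usp18 (next 0.698, median 0.306) and 1.03 of Ifi27l2a (next 0.341, median 0.0844), and led with 1.59 of Irf7 and 1.44 of Bst2. The same library was highest for 16 of 38 further induced genes and for 3.62% of all genes. The DMT library of 1 SocialInteraction mouse of ELA_SAFit2 also led for 6 members, with 6.62 CPM of Oasl2 (next 3.04), 3.62 of Irf7 (next 1.98), 2.04 of Usp18 (next 0.922), 1.81 of Isg15 (next 1.51), 14.6 of Irf9 (next 12.7) and 1.98 of Bst2 (next 1.78). It led for 19 of the 38 further induced genes and 2.61% of all genes.

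The mPFC library of mouse 81 (Ctrl_Veh, NoInteraction) led for Ifi27l2a at 1.14 CPM (next 0.591), Isg15 at 1.53 (next 1.46) and Oasl2 at 5.48, and for 7 of the 38 further genes beside 1.33% of all genes. The Nacc library of mouse 43 led for 4 members and 7 of the 38 further genes, beside 3.66% of all genes. The leading libraries of the BLA (mouse 39) and vHipp (mouse 1) led for 2 and 1 members. These 4 mice belonged to Ctrl_Veh, ELA_Veh and ELA_SAFit2, and each of the 4 libraries matched its own mouse by individual-specific genes. In summed perivascular macrophage markers the DMT library of the SocialInteraction mouse ranked 1, the ACC library of mouse 15 ranked 2, the Nacc library of mouse 43 ranked 3 and the mPFC library of mouse 81 ranked 10 of 41, while in microglial markers they ranked 25, 24, 33 and 4. The defining T cell gene Cd3e had medians between 0 and 0.060 CPM in all regions. It cannot stand for the whole list of T and NK cell markers, of which 2 of 5 passed the filter. Summed, these 2, Cd3e and Cd4, had medians of 32.3 CPM over Nacc libraries, 14.9 over BLA libraries and at most 0.967 elsewhere. Nearly all of this was Cd4, with medians of 32.3 CPM in the Nacc and 14.9 in the BLA. The sum thus follows mostly Cd4, and whether it measures T or NK cells was not tested. By this sum the same 4 libraries ranked 24, 26, 40 and 27 of 41, in the order given above. The part of macrophages in these libraries was not tested.

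**Figure D5:**
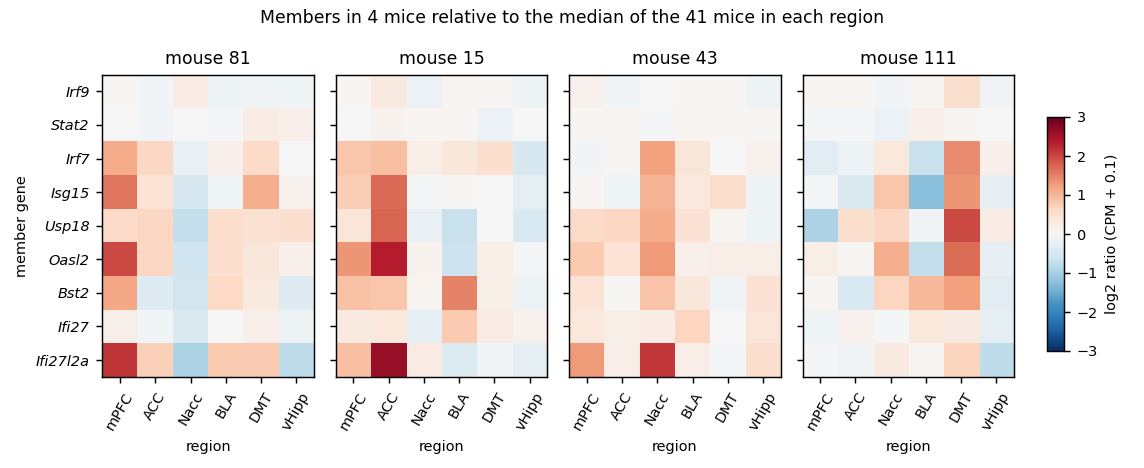
Log2 ratio of CPM (with 0.1 added) to the median of the 41 mice in each region, for the 9 genes (y axis) in the 6 regions (x axis) of mice 81, 15 and 43 and, in the last panel, the SocialInteraction mouse of ELA_SAFit2 with high DMT values; red is above and blue below the median. The panels are ordered by the region in which each mouse led (mPFC, ACC, Nacc and DMT), high values also stand in the DMT of mouse 81 and the mPFC of mouse 15, and the Nacc libraries of mouse 81 and of the SocialInteraction mouse are among those that match another mouse.

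In other regions the same mice were high in some and low in others. The DMT library of mouse 81 ranked 2 of 41 for Isg15 (1.51 CPM), Irf7 (1.98 CPM) and Stat2, 3 for Ifi27l2a, 4 for Usp18 and 6 for Oasl2 and Bst2. Its ACC library ranked 3 for Irf7, 4 for Oasl2, 5 for Usp18 and 6 for Isg15. The mPFC library of mouse 15 ranked 3 for Ifi27l2a, Irf7 and Oasl2, 4 for Ifi27 and Bst2 and 5 for Isg15, while the mouse ranked 40 for Usp18 in the BLA and 37 in the vHipp. The mPFC library of mouse 43 ranked 2 for Ifi27l2a and Ifi27 and 3 for Usp18. The SocialInteraction mouse, highest in the DMT, ranked 41 of 41 for Isg15 (0.123 CPM) and Irf7 (0.490 CPM) in the BLA, 37 for Usp18 in the mPFC and 36 for Oasl2 in the vHipp. Mice of all 3 conditions were among those with joint high values, and mice 81 and 15 had them in more than 1 region.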

How the data were processed

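RNA was measured in bulk, in 1 library for each of 6 regions and 41 mice, as polyA RNA sequenced in pairs of 100 base reads. The authors ran salmon and deposited an estimated count for each gene and library. Per the labels the submitters' processing notes name the build GRCm39 (mm39), STAR and DESeq2, while their versions and the annotation release are not given in the sources used here. Of the deposited values 12.12% are not whole, and they were rounded. Total counts ran from 20804219 to 43351397 per library, and precision for genes of few reads is limited by counting.

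Groups were taken from the labels. Gene types came from GENCODE M21 by identifier (52073 of 56691), then from RefSeq by symbol (978), while 3640 without a type were not used. Of the protein-coding genes, those with 100 or more counts in all and detected in 6 or more libraries went into edgeR 4.0.16 in R 4.3.3 (quasi-likelihood test on TMM-scaled libraries, with p-values adjusted by Benjamini-Hochberg over all genes tested and a threshold of 0.05). The fits covered the 3 conditions within each region and set, the sets within each region, counts summed over the regions of a mouse, and each region against the mean of the other 5 with the group as a term. CPM values are scaled by TMM, and 0.1 was added before logs for correlations, which used 100000 permutations. Summed counts had 1 added before logs in exact permutation tests. Adjusted p-values in the text are edgeR's.

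Libraries with the same mouse number come from the same animal, so the replicate block (mouse) was an alternative for the regions. The other alternatives were DESeq2 1.42.0, its size factors, limma 3.58.1 on mean log2 values, no filter, all gene types, joint fits, each mouse left out, single sets and fewer regions. Leaving out the 12 Nacc libraries that match another mouse in the regional and social comparisons, the low choroid plexus libraries and the sums without the BLA were chosen after seeing the data, as was likeness within the BLA. The fits were tested on simulated counts. Remaining steps ran in SciPy 1.17.1 and pandas 2.3.3 under Python 3.11.15 with NumPy 2.4.6, and matplotlib 3.10.9 drew the plots.

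The members, pathway lists and marker lists were chosen with earlier results of these data known. All 9 members are named; further genes are named if called in a pathway list or among the 5 nearest in pattern to a member. Where the labels name no litter, p-values measure the spread between mice only.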

Additional observations from a re-analysis of the deposited data

Results flagged for a closer look

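In counts summed over the 6 regions, 5 of 54 combinations of a gene and a group held a mouse whose distance from the rest exceeded Dixon's critical value, where chance alone gives about 1 in 20. The 5 came from 3 mice, and the genes are correlated, so they are not separate tests. For Ifi27, mouse 65 of Ctrl_Veh without interaction had 1745 normalized counts and the other 6 mice 2131 to 2282. Its BLA library held the lowest Ifi27 of all 41 (6.81 CPM) and was among the 6 with little choroid plexus RNA. For Bst2, mouse 15 of ELA_SAFit2 without interaction had 340.1 normalized counts and the other mice 114.0 to 172.3. In its BLA library Bst2 ranked 2 of 41 at 7.49 CPM, and the choroid plexus sum of that library was the highest of all 41 (5665 CPM). The same mouse had 488.6 normalized counts of Oasl2 against 268.8 to 335.3 in its group, and its ACC library held 6.79 CPM. An ELA_SAFit2 mouse with interaction had 116.9 normalized counts of Usp18 against 48.79 to 64.69, and 496.7 of Oasl2 against 275.1 to 341.6, and its DMT library was the highest of 41 for both genes.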

How the results depend on the processing

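Low counts limit Ifi27l2a, Usp18 and Isg15, and the BLA values of Bst2 and Ifi27 move with choroid plexus markers. Members called between regions numbered 39 with the replicate block (mouse) and 38 without it. The block added Irf9 in the Nacc (adjusted p = 0.0490, 0.112 without), turned Isg15 in the mPFC to -0.017 and changed no other call. The count was 38 with DESeq2, its size factors or no filter, 36 with the Nacc without mismatched libraries (Ifi27 and Ifi27l2a in the Nacc lost, at adjusted p = 0.0841 and 0.135) and 28 with the low choroid plexus BLA libraries. Comparisons of conditions and of social interaction gave 0 member calls under every alternative run.

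With only those BLA libraries, the log2 differences of Bst2 became 0.090 in the ACC, -0.48 in the BLA, 0.22 in the DMT, 0.069 in the mPFC and 0.11 in the vHipp. Those of Ifi27 became -0.49 in the BLA and 0.030 in the Nacc, those of Irf7 0.036 in the mPFC and 0.0044 in the vHipp, and that of Isg15 -0.041 in the mPFC. Each mean of the other 5 regions holds the BLA, which ties these values to it. Usp18 in the ACC became 0.0045 without the filter and 0.0054 without mismatched Nacc libraries.

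On summed counts, where all differences were small and uncalled, the following changed sign, and the cause was not tested. Without the BLA, Bst2 gave 0.080 (ELA_SAFit2 against Ctrl_Veh), 0.033 (against ELA_Veh) and 0.047 (ELA_Veh against Ctrl_Veh), Ifi27 0.011 and 0.047 (ELA_SAFit2 and ELA_Veh against Ctrl_Veh), and for ELA_SAFit2 against ELA_Veh Ifi27l2a -0.046 and Oasl2 0.0074. Without the Nacc, Bst2 gave 0.018 and Oasl2 0.041 for ELA_SAFit2 against ELA_Veh, and Irf7 -0.020 for ELA_Veh against Ctrl_Veh. In NoInteraction mice alone, ELA_SAFit2 against Ctrl_Veh gave 0.016 for Ifi27, -0.15 for Irf7, -0.10 for Isg15, -0.11 for Oasl2 and -0.16 for Usp18, and against ELA_Veh 0.045 for Bst2, 0.021 for Ifi27, -0.016 for Ifi27l2a, -0.16 for Irf7 and -0.012 for Isg15. In SocialInteraction mice alone, ELA_SAFit2 against ELA_Veh gave 0.0055 for Irf9, 0.078 for Oasl2, 0.0022 for Stat2 and 0.046 for Usp18, and ELA_Veh against Ctrl_Veh -0.0040 for Ifi27l2a and 0.069 for Isg15. With limma on mean log2 values, ELA_SAFit2 gave 0.014 for Bst2, -0.015 for Irf7 and -0.066 for Isg15 against ELA_Veh and -0.0072 for Irf7 and -0.046 for Isg15 against Ctrl_Veh, and ELA_Veh gave 0.019 for Isg15 against Ctrl_Veh. Stat2 for ELA_SAFit2 against ELA_Veh gave 0.00073 with DESeq2, 0.00074 with its size factors and 0.0010 without the filter.

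With each mouse left out in turn, ELA_SAFit2 against ELA_Veh ran from -0.11 to 0.049 for Bst2, -0.049 to 0.0085 for Ifi27, -0.039 to 0.12 for Ifi27l2a, -0.040 to 0.035 for Irf7, -0.084 to 0.026 for Oasl2 and -0.0093 to 0.0071 for Stat2. Against Ctrl_Veh, ELA_SAFit2 ran from -0.015 to 0.062 for Irf7 and -0.0088 to 0.085 for Isg15, and ELA_Veh from -0.0079 to 0.061 for Irf7 and -0.048 to 0.039 for Isg15. Without a change of sign, ELA_SAFit2 against Ctrl_Veh ran from 0.023 to 0.16 for Usp18, 0.048 to 0.16 for Oasl2, 0.093 to 0.31 for Ifi27l2a and -0.32 to -0.11 for Bst2, ELA_Veh against Ctrl_Veh from 0.027 to 0.30 for Ifi27l2a (lowest without mouse 43), 0.087 to 0.18 for Oasl2 and -0.28 to -0.11 for Bst2, and ELA_SAFit2 against ELA_Veh from -0.22 to -0.078 for Usp18.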

Other observations

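Within the BLA the genes nearest to Ifi27l2a over 41 mice were Adgrg2 (r = 0.63), Baiap3 (0.63), Magel2 (0.62), AW551984 (0.61) and Vdr (0.61) among 16230 genes, while those nearest to Bst2 were Slc16a12, Cab39l and Slc31a1 (0.97 each) and those nearest to Ifi27 were Ctsc, Slc12a4 and Notch2 (0.98, 0.97 and 0.97). Baiap3 and Magel2 are known from hypothalamic and amygdalar neurons, and Slc16a12 and Cab39l lie outside the interferon lists used here. In the DMT, Ifi27 correlated over 41 mice with the summed striatal markers at r = 0.77 (rho = 0.71, permutation p = 1e-05 each, the smallest possible, and r = 0.69 without the 2 farthest mice). With the meningeal markers it gave r = 0.76 (permutation p = 1e-05) and rho = 0.57 (permutation p = 8e-05), and r = 0.54 without the 2 farthest mice. These ties were noticed after the values were seen and are given as values.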
